A study of Mus musculus with 4 samples.

Results

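The 31 genes described here encode the contractile and energy machinery of the heart muscle cell. They were chosen by name, with earlier results of these data known. They are 7 thick filament genes, 6 thin filament genes, 8 Z-disc and intermediate filament genes, 4 calcium handling genes and 6 energy genes. All 31 were found among the 30905 genes of the count matrix. The matrix came from 4 hearts transplanted into the abdomen of male C57BL/6J mice, all animals being 8 to 10 weeks old, of which 2 were allogeneic grafts from Balb/C donors and 2 were syngeneic grafts from C57BL/6J donors. No drug or gene change was applied, the grafts were collected on day 5, and the tissue was minced and enzymatically digested into single cells for droplet RNA-seq (10x Chromium, 3′ kit v3). Whole adult heart muscle cells are large and survive such digestion poorly, which limits these libraries as a sample of the heart muscle. The question asked of the genes was how much of their RNA lay in heart muscle cells and how much in droplets holding other cells, in each library and at each mitochondrial RNA share.

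In a sarcomere, the contractile unit, thick filaments of myosin and titin slide along thin filaments of actin, tropomyosin and troponins that are anchored in Z-discs. Calcium released from the sarcoplasmic reticulum starts each contraction and is pumped back to end it, and the ATP for both comes mainly from fatty acid oxidation and is buffered by creatine kinases. When heart muscle cells break during dissociation, their abundant transcripts are set free in the suspension and can be captured in droplets that hold other cells.

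Each barcode ended in a suffix from 1 to 4, and the suffixes were not paired with grafts in the labels or files. The cells with each suffix are called libraries 1 to 4, all cells are 1 pooled sample, and no allogeneic value is set against a syngeneic one. No value has replicates and no test between libraries was made, so intervals of counts cover counting error only. The 4 libraries held 13112, 13907, 13500 and 13305 cells with medians of 4807.5, 4759, 6319 and 9784 UMIs (unique molecular identifiers, each counting 1 captured RNA molecule), and 308 barcode sequences occurred in more than 1 library. Most other classes lay in different clusters in different libraries. Endothelial-like cells were led by *Aplnr* and *C1qtnf9* in libraries 1 and 3, by *Timp4* and *Car4* in library 2 and by *Ubd* and *Gbp2b* in library 4, and most macrophage-like cells of library 4 by *Ly6i* or *Ccl8* and those of the others by *Fcrls*. In libraries 1 to 4, 21.1%, 5.41%, 27.0% and 15.1% of cells had 20% or more of their UMIs from mitochondrial genes. Such a share is often taken as a sign of damage, but it also differed between cell classes, and damage was not tested. Clusters were built without the 31 genes and named from other markers, among them 16 cardiomyocyte markers such as *Trdn*, *Myom1*, *Cox7a1* and *Nppa*.

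The 31 genes together held 1126024 UMIs, which is 0.235% of all non-mitochondrial UMIs, and 92.2% of the 53824 cells had at least 1 of them. Cardiomyocyte-like cells were few, with 1223 cells under 20% mitochondrial UMIs and 707 at or over it. In the first of these groups the 31 genes made up 14.3% of the UMIs (95% Poisson interval 14.2 to 14.3). By library the share was 15.8% in 750 cells of library 1, 9.34% in 160 cells of library 2, 12.5% in 157 cells of library 3 and 10.1% in 156 cells of library 4. The libraries therefore spanned 1.70-fold. None of the 4 counting intervals overlapped, but these leave out the spread between cells. The 5th and 95th percentiles of single cells were 6.29% and 21.0% in library 1 and 1.75% and 15.9% in library 2. With the cells marked as doublets kept, the cardiomyocyte-like cells were 1320 cells with a share of 7.07% and 138 deeper cells (median 4904 UMIs, 130 of them from library 1) with 18.2%, and the pooled share was 9.25%. Under 20% mitochondrial UMIs, the median single cardiomyocyte-like cell had 158 UMIs of the 31 genes out of 1189. The median endothelial-like cell under 20% had a deeper profile of 5755 UMIs, and no such cell reached a share of 5%. At or over 20%, 13 of 2070 endothelial-like cells did. Because the cardiomyocyte markers gave these clusters their name, their levels there are no check of the label of the gene set. The levels of the 31 genes, which were left out of the clustering and of the marker lists, are given below.

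The promoters below are shown because they carry the CArG box, the site of serum response factor, a transcription factor of muscle genes. The 300 bases around each annotated start (250 before, 50 after; RefSeq, GRCm38.p6) were at hand for 27 of the 31 genes, in 36 windows. A CArG box was found on either strand in 6 of the 36 windows (16.7%) and in 1.63% of all 32851 windows, and the genes with one were *Myl3*, *Myl7*, *Actc1*, *Nebl* and *Ldb3*. A MEF2 site was found in 11.1% against 3.19%, CATTCC, the MCAT site of TEAD factors, in 25% against 14.7%, a GATA site, spelled AGATAA, in 13.9% against 11.2%, the TATA box TATAAA in 11.1% against 13.6%, and the E-box CANNTG in 88.9% against 72.3%. These are matches of letters and say nothing of binding. The 3 promoters printed are those of *Actc1* (chr2:114052876-114053125, minus strand), *Myl3* (chr9:110763428-110763677, plus strand) and *Myl7* (chr11:5898783-5899032, minus strand), each as the 250 bases before the start, 5′ to 3′ on the gene's strand, with the CArG box in capitals beginning 47, 85 and 61 bases before the start.
Actc1: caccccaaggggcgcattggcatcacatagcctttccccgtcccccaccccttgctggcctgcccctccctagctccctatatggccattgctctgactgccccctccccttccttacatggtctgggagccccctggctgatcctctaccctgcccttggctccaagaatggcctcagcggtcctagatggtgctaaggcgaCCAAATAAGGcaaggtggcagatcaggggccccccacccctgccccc
Myl3: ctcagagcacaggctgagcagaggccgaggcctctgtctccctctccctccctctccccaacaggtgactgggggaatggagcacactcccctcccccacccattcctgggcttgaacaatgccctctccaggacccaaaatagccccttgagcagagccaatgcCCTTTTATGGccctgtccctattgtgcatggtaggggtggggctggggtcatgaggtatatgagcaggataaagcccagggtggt
Myl7: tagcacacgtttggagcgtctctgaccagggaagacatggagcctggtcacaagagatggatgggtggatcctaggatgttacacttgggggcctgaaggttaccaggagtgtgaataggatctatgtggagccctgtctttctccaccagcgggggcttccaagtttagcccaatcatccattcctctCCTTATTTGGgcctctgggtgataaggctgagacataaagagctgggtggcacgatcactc
*Actc1* encodes the actin of heart thin filaments, *Myl3* the essential light chain of ventricular myosin and *Myl7* the regulatory light chain of atrial myosin. Their levels differed widely in the cells described next.

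Over the pooled libraries, of which library 1 gave 270206 of the 360121 UMIs, thin filament genes led the set. They took 36.1% of the set's UMIs in cardiomyocyte-like cells under 20% mitochondrial UMIs, against 21.9% for energy genes, 21.4% for thick filament genes, 15.6% for Z-disc and intermediate filament genes and 4.92% for calcium handling genes. By library, thin filament genes took 35.5%, 35.4%, 41.2% and 33.7% in libraries 1 to 4. In library 4 the Z-disc and intermediate filament genes led instead, with 48.1%. The unit of the levels, CPM, is the number of UMIs of a gene for every 1000000 non-mitochondrial UMIs of the same cells. No division by gene length was made, because a molecule gives 1 count at its 3′ end whatever its length. With the libraries pooled, the 4 most abundant of all non-mitochondrial genes in these cells belonged to the set. They were *Tpm1* (tropomyosin) at 19372 CPM, *Myl2* (the regulatory light chain of ventricular myosin) at 17410 CPM, *Tnnt2* (cardiac troponin T) at 13911 CPM and *Mb* (myoglobin, the oxygen store of muscle) at 11346 CPM. Library 4 had another order, with *Cryab* (28211 CPM), *Ankrd1* (18468 CPM) and *Acta1* (18356 CPM) above *Tpm1* (14967 CPM). The last 2 of these above *Tpm1* are not in the set.

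Of the 31 genes, 29 were at least 4-fold higher in cardiomyocyte-like cells than in the mean of the other named classes, with 10 CPM added to both levels, beside 2.16% of the 19024 genes compared. The median was 63.5-fold for the 31 genes and 0.954-fold over all genes compared. *Atp2a2*, the pump SERCA2a/b that refills the calcium store, was 3.58-fold higher, and *Casq2*, the calcium-binding protein of that store, was at 1.01 times the mean of the others. Both were higher in smooth muscle-like cells than in cardiomyocyte-like cells, at 631 against 597 CPM for *Atp2a2* and 196 against 31.7 CPM for *Casq2*. *Atp2a2*, *Casq2* and *Ryr2* each overlap 2 other annotated genes on their strand, and *Myh6*, *Tnni3* and *Myoz2* overlap 1, so reads in the shared stretches are uncertain.

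Among thick filament genes, the ventricular light chains were the most abundant in every library. *Myl2* was at 20905, 12109, 12447 and 4248 CPM in libraries 1 to 4. *Myl3* was at 9916, 8028, 7245 and 2360 CPM. *Myh6*, the alpha heavy chain that is the main motor of the adult mouse heart, was at 3667, 567, 1936 and 263 CPM, so its highest and lowest libraries lay further apart than those of the light chains. *Mybpc3*, myosin-binding protein C, was at 905, 150.0, 561 and 303 CPM. *Ttn*, titin, had another order, with 500.5, 98.4, 1341 and 352 CPM. Library 3 was the highest for *Ttn*, and library 1 for the other genes just named.

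The thin filament genes *Tnnc1* and *Tpm1* varied least between libraries. *Tpm1* was at 20408, 14265, 20192 and 14967 CPM. *Tnnt2* was at 15050, 8117, 13235 and 11895 CPM. *Tnni3*, the inhibitory troponin, was at 10481, 5469, 5041 and 2013 CPM, and *Tnnc1*, the calcium-binding troponin, at 5357, 4232, 5877 and 4391 CPM. The troponins, which work as 1 complex, were thus not lowered alike in library 4, where *Tnni3* was the lowest of the 4 libraries and *Tnnc1* lay above library 2. *Actc1*, whose promoter is printed above, was at 4754, 965, 7081 and 672 CPM. *Nebl*, nebulette, which binds actin at the Z-disc, was at 190, 32.8, 151 and 49.0 CPM.

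**Figure D1:**
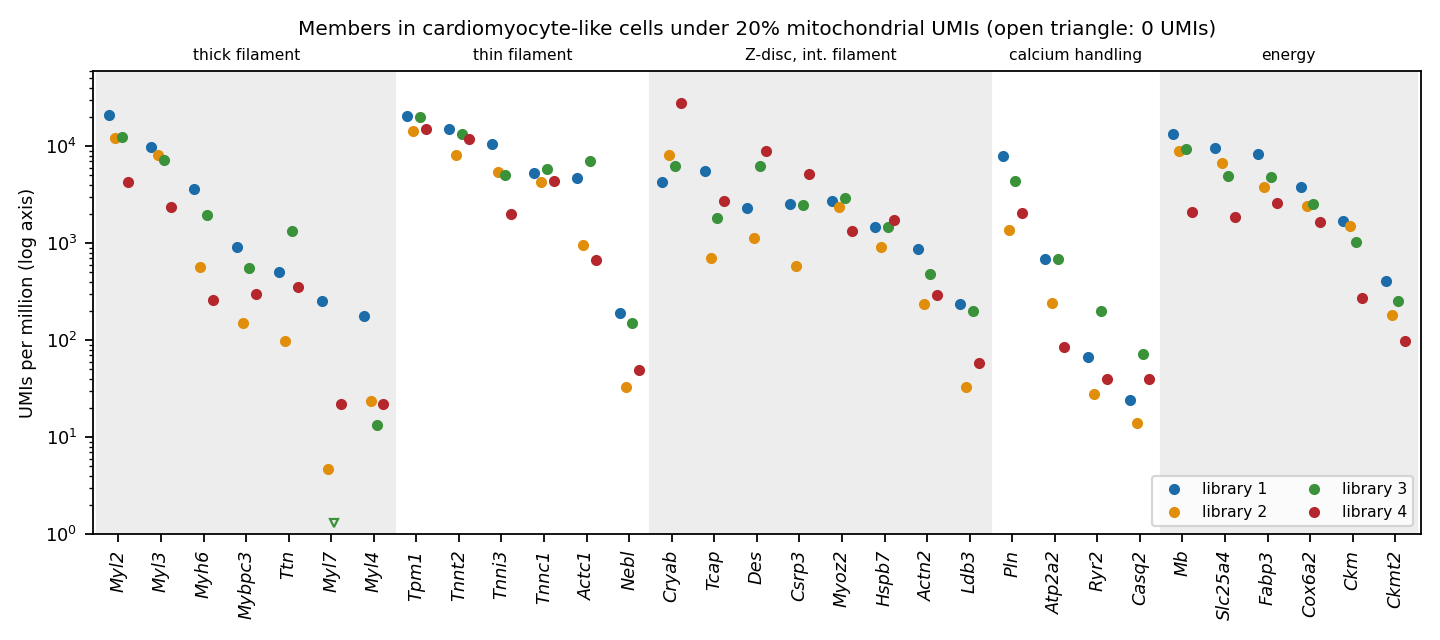
Level in CPM (log axis) of each of the 31 genes in cardiomyocyte-like cells under 20% mitochondrial UMIs, 1 point per library, grouped by role. *Cryab* and *Des* are highest in library 4 (28211 and 8924 CPM), where *Myl2*, *Myl3*, *Myh6* and the 6 energy genes are lowest.

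Of the 8 Z-disc and intermediate filament genes, 4 were highest in library 4, and *Cryab* and *Des* stood out among them. *Cryab*, the small heat shock protein alpha-B crystallin that protects desmin, was at 4229, 8060, 6216 and 28211 CPM. *Des*, desmin, the intermediate filament that ties Z-discs together, was at 2333, 1120, 6210 and 8924 CPM. *Csrp3*, the muscle LIM protein of the Z-disc, was at 2564, 581, 2470 and 5224 CPM. *Hspb7*, another small heat shock protein, was at 1477, 904, 1484 and 1732 CPM, with less between the libraries. The other Z-disc genes were not highest in library 4. *Tcap* (telethonin) was at 5512, 703, 1836 and 2721 CPM and *Myoz2* (calsarcin) at 2714, 2339, 2952 and 1323 CPM. *Actn2*, alpha-actinin, was at 881, 239, 487 and 289 CPM and *Ldb3*, the PDZ-LIM protein Cypher, at 234, 32.8, 201 and 57.9 CPM.

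Calcium handling was represented mainly by *Pln*, phospholamban, which restrains the calcium pump. It was at 7920, 1373, 4404 and 2053 CPM in libraries 1 to 4. The pump itself, *Atp2a2*, was at 689, 244, 690.3 and 84.6 CPM, and *Ryr2*, the release channel, at 67.4, 28.1, 201 and 40.1 CPM. Energy genes were lowest in library 4 without exception: *Mb* was at 13305, 9026, 9302 and 2106 CPM, *Slc25a4* (the ATP/ADP carrier of the mitochondrial membrane) at 9573, 6748, 4909 and 1862 CPM and *Fabp3* (the fatty acid carrier of heart cytosol) at 8365, 3796, 4854 and 2627 CPM. *Cox6a2*, the muscle form of a cytochrome oxidase subunit, was at 3790, 2418, 2513 and 1657 CPM. The cytosolic creatine kinase *Ckm* was at 1693, 1523, 1018 and 272 CPM and the mitochondrial one, *Ckmt2*, at 409, 183, 257 and 98.0 CPM.

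Library 4 held its cardiomyocyte-like cells in 2 clusters. One, of 139 cells of which 137 were from library 4, was led by *Acta1*, *Ankrd1*, *Xirp2*, *Nppa* and *Nppb* and had a share of 8.24%. The main cluster, of 1084 cells with 748, 160, 157 and 19 from libraries 1 to 4, had a share of 14.7%. In the library 4 cluster, 21 of the 31 genes were at least 2-fold lower than in the main cluster, beside 19.2% of the 8112 genes compared, and 2, *Cryab* (3.52 times the main cluster's level) and *Des* (2.75 times), were at least 2-fold higher, beside 11.9% of genes. *Myh6* was at 0.082 and *Actc1* at 0.089 of the main cluster's level, and *Tnnt2* at 0.83.

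Since cluster and library cannot be told apart in that comparison, the same clusters were set against each other within library 4 (137 and 19 cells, median 783 and 2813 UMIs). There, 11 of the 24 genes with enough UMIs (20 over both clusters) were at least 2-fold lower in the cluster led by *Acta1*, beside 9.39% of the 1566 genes compared, and none was 2-fold higher, beside 24.1% of genes. *Cryab* was now the lower one, at 21361 CPM against 46603 CPM in the 19 cells of the main cluster, and *Des* was at 8496 against 10075 CPM. The raised *Cryab* and *Des* were therefore seen in both clusters of library 4, and *Myh6* was low in both (238 and 328 CPM).

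The light chains also separated a few atrial cells. Of 1091 cardiomyocyte-like cells under 20% mitochondrial UMIs with at least 5 light chain UMIs, 1080 had under 20% of them from the atrial genes *Myl4* and *Myl7*, 8 had over 80%, and 3 lay between. The 8 cells (6 in library 1, 1 each in libraries 2 and 4) held 293 of the 317 UMIs of *Myl4* and 436 of the 443 UMIs of *Myl7*, and 220 UMIs of *Sln*, the calcium pump regulator of atrial muscle, which had 5 UMIs in the ventricular-rich cells. At or over 20% mitochondrial UMIs 7 cells were of this kind, against 602 ventricular-rich ones. The levels of *Myl4* (126 CPM) and *Myl7* (176 CPM) in cardiomyocyte-like cells under 20% mitochondrial UMIs thus rested largely on 8 cells. At or over 20% they were at 666 and 793 CPM.

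Over the pooled libraries, more of the RNA of the set lay outside cardiomyocyte-like cells than in them. These cells held 42.1% of its UMIs at all mitochondrial shares, the other named classes 40.4% in cells under 20% mitochondrial UMIs and 3.23% at or over it, unnamed clusters 4.11% and 0.869%, and cells left out as doublets 7.65% and 1.53%. This distribution rested on library 1: without it, cardiomyocyte-like cells held 21.6%. Within library 1 most of the UMIs lay in cardiomyocyte-like cells, 47.5% under 20% mitochondrial UMIs and 14.7% at or over it. In libraries 2 and 4 the other named classes under 20% mitochondrial UMIs held 67.2% and 64.3% of the UMIs, against 21.4% in library 1.

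Part of the set was high in other classes as well. Smooth muscle-like cells, with a contractile apparatus of their own, had the highest share outside heart muscle, 0.762%, and held *Tpm1* at 2731 CPM, *Des* at 1160, *Pln* at 590.4, *Cryab* at 392, *Hspb7* at 179 and *Ldb3* at 88.7 CPM. Pericyte-like cells had *Des* at 292, *Casq2* at 79.5 and *Nebl* at 38.4 CPM. *Slc25a4* was at 1191.5 CPM in smooth muscle-like, 570.03 in fibroblast-like, 487 in pericyte-like, 310 in T/NK-like and 305 CPM in endothelial-like cells. Fibroblast-like cells had *Cryab* at 194 CPM, and T/NK-like cells had *Actn2*, at 8.38 CPM, above every other class but the heart muscle. The shares of the set in the other classes were 0.214% in pericyte-like, 0.141% in fibroblast-like, 0.133% in endothelial-like, 0.0820% in erythroid-like, 0.0679% in B-like, 0.0605% in T/NK-like, 0.0435% in granulocyte-like and 0.0431% in macrophage-like cells. Over all of them it was 0.117%. In endothelial-like cells the share was 0.176%, 0.124%, 0.123% and 0.0928% in libraries 1 to 4, so the highest library was 1.90-fold above the lowest.

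To set such expression apart, the genes were ordered by their level in cardiomyocyte-like cells over that in the highest other class. There were 13 genes at or over 100-fold, *Actc1* (128-fold) being the lowest of them and *Ckmt2* (98.6-fold) just outside. They are *Myl2*, *Myl3*, *Myl7*, *Actc1*, *Tnnt2*, *Tnni3*, *Tnnc1*, *Myoz2*, *Csrp3*, *Mb*, *Ckm*, *Cox6a2* and *Fabp3*, called restricted genes from here on. They were chosen on these values, so their low levels elsewhere are a description. The share of all genes passing this limit is not given here, so the count of 13 only defines the group. Cardiomyocyte-like cells held 63.4% of the restricted genes' UMIs and 28.1% of those of the other 18 genes. By library the restricted figure was 72.6%, 33.2%, 48.8% and 47.4%, so in library 2 more of their UMIs lay in the other named classes (50.02%) than in heart muscle.

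The summed level of the restricted genes was not 0 in any class, and its order by library was alike. Library 1 was highest in all 9 other classes and library 4 lowest in the 7 classes that had at least 20 cells of it. Endothelial-like cells had 751, 409, 360 and 147 CPM in libraries 1 to 4, and macrophage-like cells 591, 199.8, 284 and 51.4 CPM. B-like cells, blood cells that have no sarcomere, had 499.9, 208, 368 and 78.2 CPM. In cardiomyocyte-like cells the level was 99150, 58607, 74035 and 38810 CPM, again highest in library 1 and lowest in library 4. For these genes, the 7 classes measured in all 4 libraries and the heart muscle thus shared both ends of the order. The genes were chosen on pooled levels, and library 1 gave 169192 of their 218404 UMIs in cardiomyocyte-like cells. The order there is not independent of that choice. For the whole set, cardiomyocyte-like, fibroblast-like and granulocyte-like cells were lowest in library 2 (granulocyte-like with overlapping intervals). Fibroblast-like cells were highest in library 3. The other named classes measured in all 4 libraries kept both ends. The part that free RNA played in these orders was not tested.

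**Figure D2:**
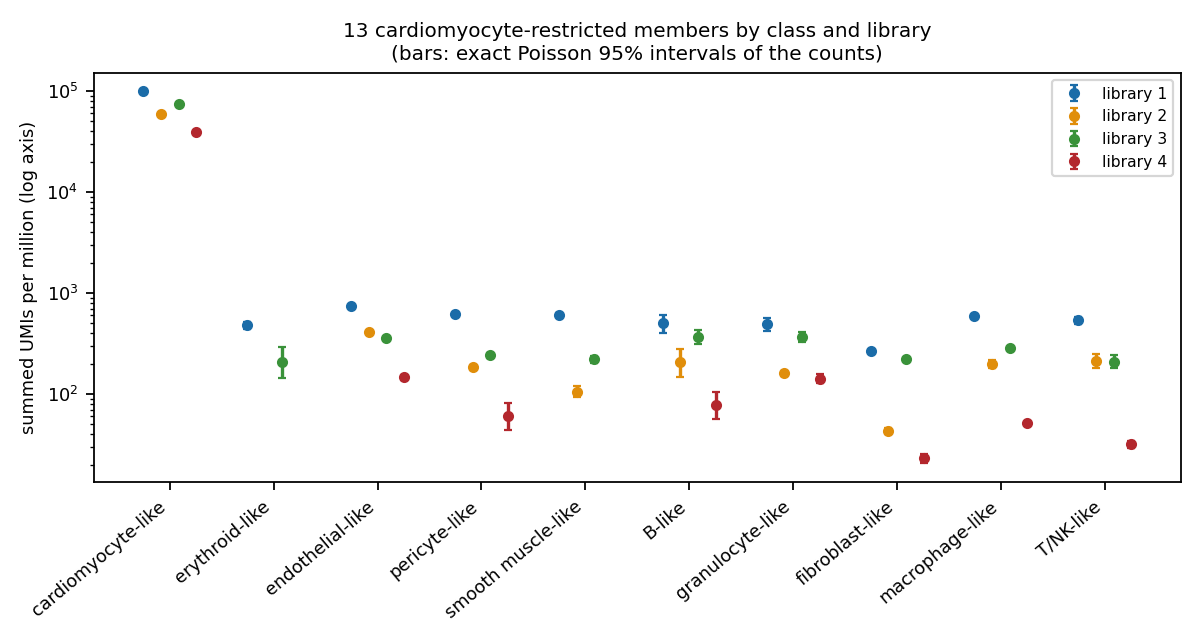
Summed level in CPM of the 13 restricted genes (log axis) by class and library in cells under 20% mitochondrial UMIs, with exact Poisson 95% intervals. Library 1 is highest in every class and library 4 lowest in each class where it is drawn, from 38810 CPM in cardiomyocyte-like to 23.0 CPM in fibroblast-like cells.

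With the other named classes pooled, deeper cells did not hold proportionally more of these molecules. In the other named classes of library 1, cells with under 1000 UMIs held a mean of 2.13 restricted UMIs and cells with 16000 or more held 7.43, while the median depth rose from 746 to 20548. The level therefore fell from 2937 to 325 CPM. It fell from 781 to 143 CPM in library 2, from 936 to 226 CPM in library 3 and from 305 to 47.9 CPM in library 4. In library 4, cells with 8000 to 16000 UMIs were at 44.1 CPM, so the fall was not steady. Classes differed in both depth and level, with 451 CPM in endothelial-like (median 5755 UMIs) and 111 CPM in macrophage-like cells (median 14145 UMIs). Depth and class therefore cannot be told apart in these values.

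The share of cells with a UMI did not follow the order of depth between classes. In endothelial-like cells (median 5755 UMIs) 98.3% had a UMI of the set, in macrophage-like cells (median 14145 UMIs) 90.8% and in granulocyte-like cells (median 3482 UMIs) 68.8%. After thinning every cell to 1000 UMIs, which left out 486 of the 1223 cardiomyocyte-like cells, these shares were 70.4%, 30.5% and 31.5%, and 100% of cardiomyocyte-like cells had one. For *Mb* the thinned share was 95.4% in cardiomyocyte-like cells (median depth before thinning 1189 UMIs) and from 1.37% in macrophage-like to 7.08% in endothelial-like and erythroid-like cells.

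The proportions of the genes to each other were then compared with those in heart muscle, as a description only. The choice of the restricted genes limits how far each can exceed the rest in another class, and each is part of the sum it is divided by, so ratios near 1 are in large part set by that choice. In the 28 pairs of a class and a library with at least 100 restricted UMIs, the UMIs of *Myl2* per restricted UMI were within 2-fold of those in cardiomyocyte-like cells of the same library in all 28, with a median ratio of 0.965. The same held for *Myl3*, *Mb* and *Tnnc1* in all 28 pairs, and for 22 to 27 of the 28 pairs for the other restricted genes except *Myl7*, which was within 2-fold in 5 and rests on few cells. The pairs of a library share 1 set of cardiomyocyte-like cells as their base.

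The other 18 genes were left out of the restricted set for their higher levels in another class, so ratios above 1 for them in large part restate that choice. *Ttn* per restricted UMI was at a median of 4.80 times the heart muscle value, and above it in all 28 pairs (1.61 to 9.71 times). In endothelial-like cells it was 3.34 to 8.06 times, in granulocyte-like cells 2.93 to 8.11 times. *Myh6* was at a median of 2.17 times (1.41 to 5.65 times), again above 1 in all 28 pairs. Some of these pairs hold few UMIs of either gene. *Ryr2* was at a median of 4.69 times, *Casq2* at 7.64 times and *Atp2a2*, which other cells express as well, at 76.9 times. *Pln*, *Tcap* and *Hspb7* were near the heart muscle proportions, at medians of 1.12, 1.14 and 1.20 times, with their highest values in smooth muscle-like cells.

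**Figure D3:**
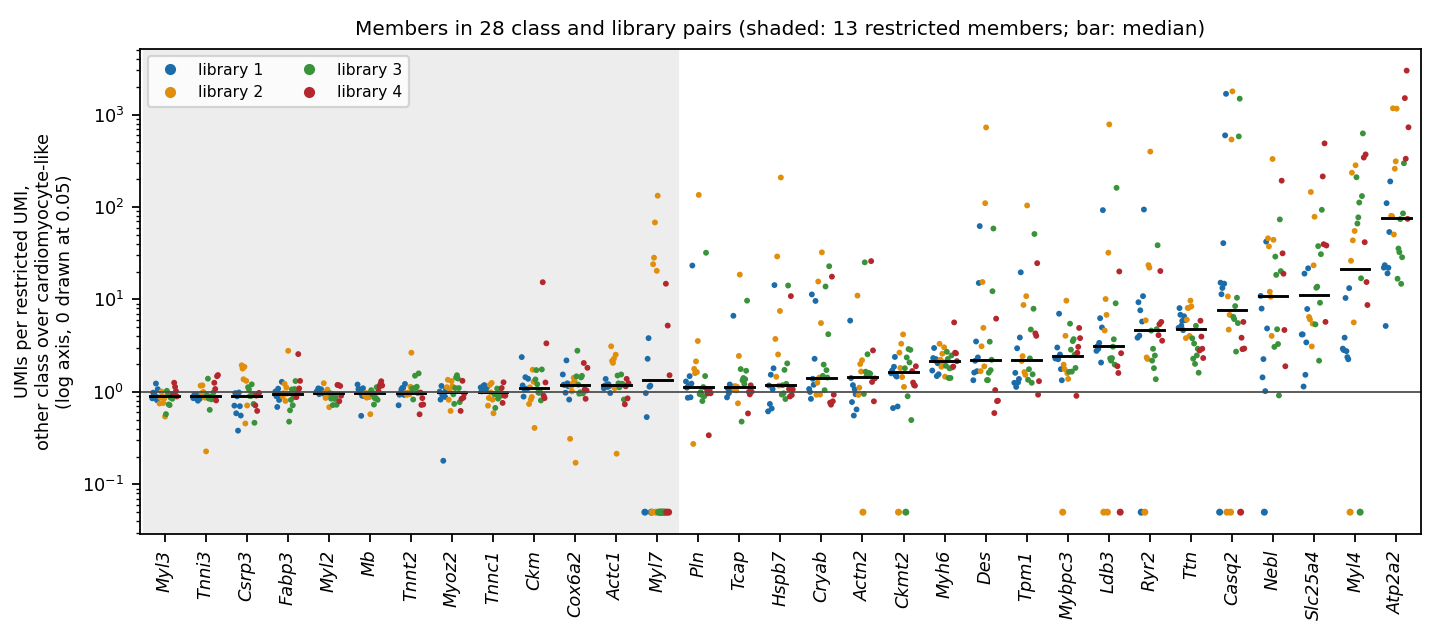
UMIs of each gene per restricted UMI in another class divided by the same in cardiomyocyte-like cells of that library (log axis, ratios of 0 drawn at 0.05), 1 point per pair of a class and a library, with the median as a bar. Of the restricted genes, 12 have medians from 0.898 to 1.19, and *Ttn* and *Myh6* lie above 1 in all 28 pairs.

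The share of the 31 genes rose with the mitochondrial share of the cells when all cells were pooled. It was 0.134% in cells under 5% mitochondrial UMIs, 0.640% from 10% to 20% and 1.98% at or over 60%. In cardiomyocyte-like cells of all libraries pooled it showed no steady rise or fall. It was 15.2% under 5% mitochondrial UMIs, 14.3% from 5% to 10%, 13.4% from 10% to 20%, 14.1% from 20% to 40%, 15.9% from 40% to 60% (45 cells) and 11.5% at or over 60% (85 cells). Within libraries 2 and 4 it fell over the ranges under 20%, from 12.4% to 7.60% and 6.65% in library 2. In library 4 it fell from 11.3% to 10.3% and 7.61%. At or over 20% these libraries had only 11 and 3 such cells. In library 3 it was 17.2% under 5% (16 cells) and 9.39% from 5% to 10% (33 cells). There it was 14.2% from 40% to 60% (17 cells) and 9.44% at or over 60% (17 cells). Cardiomyocyte-like cells were more often among the cells with high mitochondrial shares, with 36.6% of them at or over 20%, against 14.0% of endothelial-like and 5.96% of macrophage-like cells, and 39.2% of smooth muscle-like cells. The share of the 31 genes also rose in the other named classes, from 0.0863% to 0.293% and 0.929%, while their median depth fell from 13171 to 3502.5 and 558 UMIs.

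**Figure D4:**
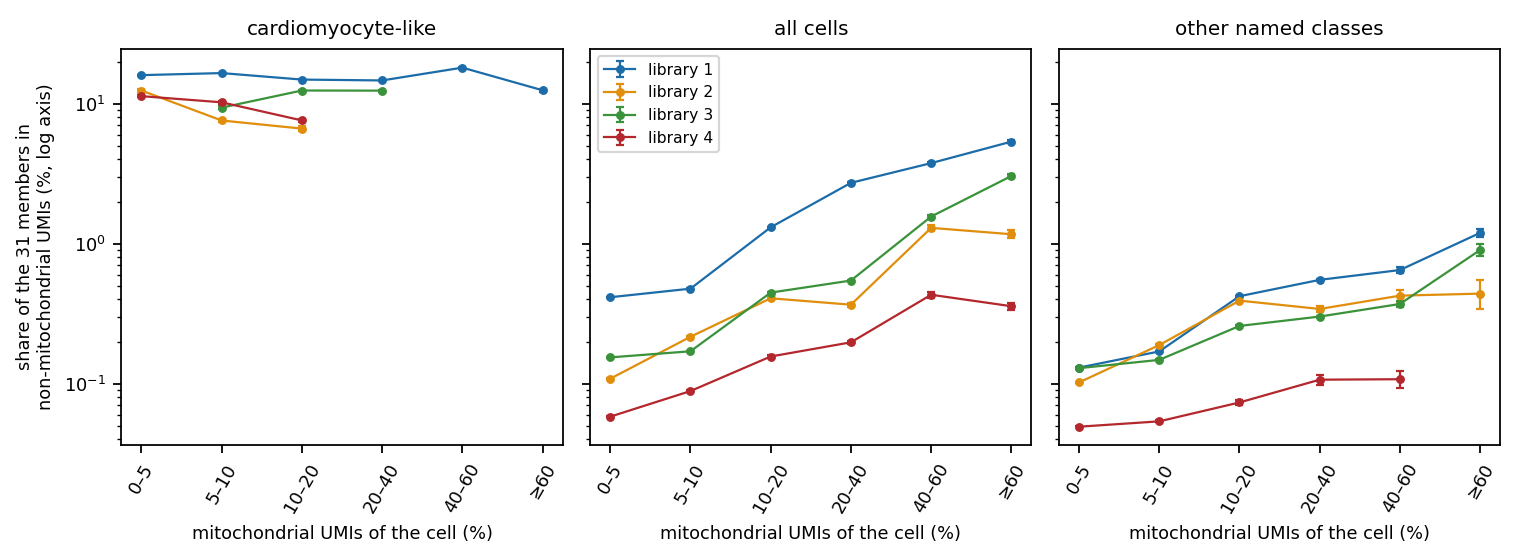
Share of the 31 genes in non-mitochondrial UMIs (percent, log axis, exact Poisson 95% intervals) against the cell's mitochondrial UMI share, 1 line per library, in cardiomyocyte-like cells, all cells and the other named classes; ranges with fewer than 20 cells are left out. All cells of library 1 rise from 0.414% to 5.37%, and its cardiomyocyte-like cells stay between 12.5% and 18.1%.

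The share of the set was nearly equal in cardiomyocyte-like cells on both sides of the 20% limit, at 14.2% at or over it and 14.3% under it (ratio 0.992, 95% interval 0.986 to 0.999), but the genes behind it were not. Within library 1 the share was 14.9% at or over the limit and 15.8% under it, and within library 3 it was 12.56% and 12.52%. The pooled ratio was 1.13 without library 1 and 1.45 with doublets kept. The sides differ in their mix of libraries, with or without library 1. Libraries 1 to 4 gave 518, 11, 175 and 3 cells at or over the limit and 750, 160, 157 and 156 under it. The pooled counts and ratios of this paragraph carry that mix. At or over the limit 8 of the 31 genes were at least 1.5-fold higher, beside 14.0% of the 9196 genes compared, and 1 was at least 1.5-fold lower, beside 3.27%. *Ttn* was at 3110 against 579 CPM (5.37 times), *Casq2* at 157 against 31.7 CPM (4.95 times), *Ryr2* at 380 against 81.7 CPM (4.65 times) and *Atp2a2* at 2724 against 597 CPM (4.56 times). *Myh6* was at 6459 against 2842 CPM (2.27 times) and *Ldb3* at 360 against 196 CPM (1.83 times). The lower one was *Cryab*, at 4032 against 6986 CPM. *Myl4* and *Myl7* were also higher (5.30 and 4.52 times). Without the few atrial cells they were still higher, though on few molecules, with 31 against 24 UMIs for *Myl4* (4.20 times, 95% interval 2.39 to 7.48) and 34 against 7 UMIs for *Myl7* (15.8 times, 6.89 to 42.2). Leaving those cells out also lowered other ratios, to 4.79 times for *Ttn*, 4.07 for *Casq2*, 3.47 for *Ryr2* and 3.99 for *Atp2a2*. *Myh6* was then at 2.11 times and *Ldb3* at 1.74 times.

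The libraries with enough cells on both sides were 1 (518 and 750 cells) and 3 (175 and 157 cells). In library 1, 8 of the 31 genes were at least 1.5-fold higher, beside 19.2% of genes, and none lower, beside 2.79%. The count of higher genes there was not far from the share over all genes. In library 3, 10 were higher, beside 15.3% of genes, and none lower, beside 11.9%. *Myl4* and *Myl7*, whose pooled levels rested largely on a few atrial cells, were among the higher genes in both libraries. *Ttn* was at 2381 against 500.5 CPM in library 1 and 4922 against 1341 CPM in library 3. *Atp2a2* was 3.77 and 4.42 times higher, *Ryr2* 3.90 and 3.34 times, *Casq2* 5.58 and 3.04 times, and *Myh6* 2.10 and 1.99 times. *Cryab*, at 0.759 and 0.825 of the lower side's level, did not reach 1.5-fold within either library. *Myl2*, by contrast with *Ttn*, was at 0.842 and 0.715 in these libraries, *Myl3* at 0.831 and 0.732, *Fabp3* at 0.774 and 0.755 and *Slc25a4* at 0.778 and 0.824, each with an interval below 1 in both. *Tpm1* (0.953 and 0.971) and *Tnnt2* (0.940 and 1.02) lay closer to 1.

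**Figure D5:**
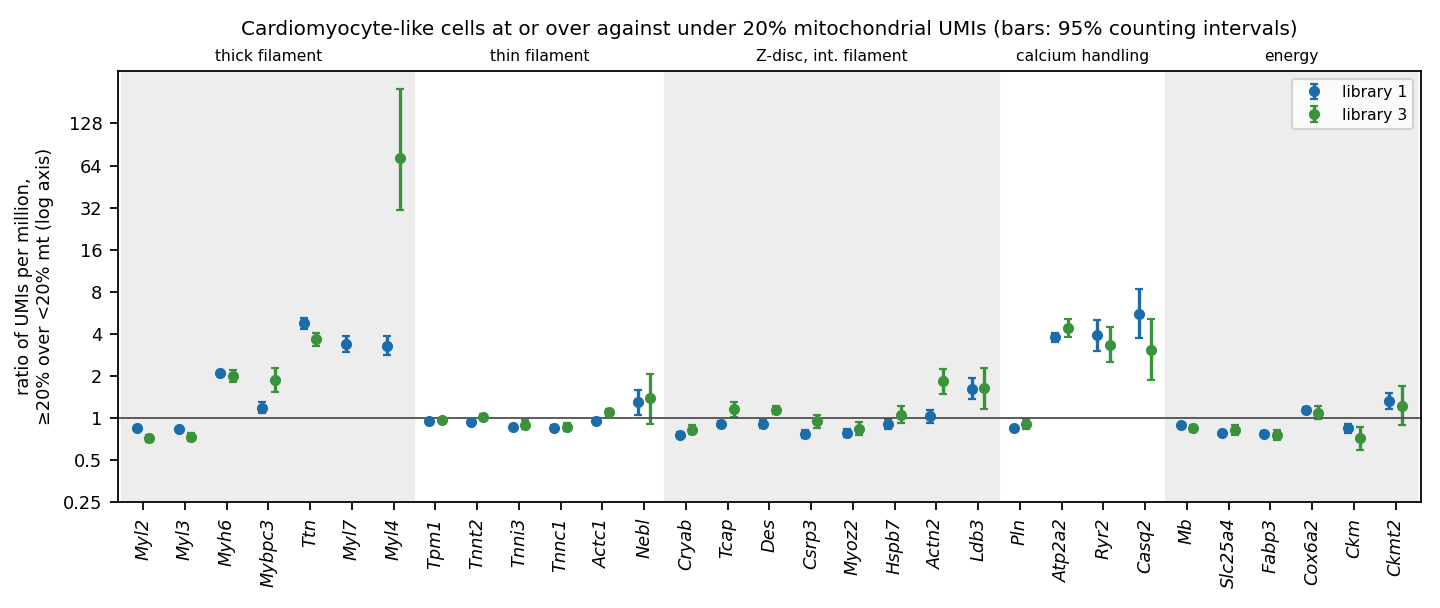
Ratio of each gene's CPM in cardiomyocyte-like cells at or over 20% mitochondrial UMIs to those under it (log axis), with 95% counting intervals, in libraries 1 and 3 (*Myl7* had 0 UMIs under the limit in library 3 and no ratio there). *Ttn*, *Atp2a2*, *Ryr2*, *Casq2* and *Myh6* lie at about 2 or above in both libraries (*Myh6* 2.10 and 1.99), while *Myl2* lies below 1.

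The genes that were higher at high mitochondrial shares included the longest of the set. *Ryr2* spans 554 kb of the genome, *Ttn* 279 kb, *Casq2* 60.1 kb and *Atp2a2* 48.7 kb, but *Nebl* (388 kb) was at 1.45 times and *Actn2* (71.3 kb) at 1.26 times. *Myl7*, of only 2.15 kb, was at 4.52 times, and *Mb* (35.2 kb) was at 0.937 times. Over the 31 genes the rank correlation of gene span with the ratio was 0.504, and over the 9196 genes compared it was 0.326. Genes are not independent replicates and each ratio comes from the same cells. The ratios are of the pooled libraries, which are mixed unequally on the sides of the limit, and include the atrial cells. *Malat1*, a nuclear RNA, was at 2.07 times in library 1 and 0.983 times in library 3, and its part in the result was not tested.

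The wider pathways followed the set to differing degrees. Of 16 further sarcomere and Z-disc genes 10 were at least 4-fold higher in cardiomyocyte-like cells, beside 2.16% of all genes, with *Acta1* (skeletal actin) the highest at 106-fold and *Myoz1* the lowest at 0.86 times. *Acta1* was at 41.6, 380, 2719 and 18356 CPM in libraries 1 to 4, highest in library 4 as *Cryab* and *Des* were. Of 10 further calcium and excitation genes 2 passed, *Sln* being the highest at 9.64-fold and *Sri* the lowest at 0.51 times. Of 10 fatty acid oxidation genes 6 passed, with *Acadm* the highest at 11.3-fold. The lowest was *Cpt1b*, which had no UMI in these cells. It was also at a mean of only 0.124 CPM in the other classes, and the reason for so few UMIs was not tested. Of 10 citrate cycle and related mitochondrial genes 4 passed, with *Idh2* the highest at 18.5-fold. Over the 45 clusters, genes outside the lists were ordered by how closely their levels ranked like the summed share of the set. The highest were *Rbpms2*, *Rcan2*, *Nexn*, *Ndrg2* and *Sh3bgr* (Spearman correlation 0.881 to 0.888), a description over clusters that share libraries. *Rbpms2* was not raised in cardiomyocyte-like cells (0.908 times the mean of the other classes), while the others were at 4.29-fold (*Rcan2*) to 13.9-fold (*Sh3bgr*).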

How the data were processed

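Per the file headers and labels, the deposited counts are whole UMI numbers, which the authors made from all 4 grafts with CASAVA 1.8 and Cell Ranger 3.0.0 on mm10 with Ensembl gene models and merged into 1 matrix without normalization, and every column was matched (0 unmatched). Cells with over 200 genes were split at 20% mitochondrial UMIs. The 13 mitochondrial genes were then removed, so levels do not depend on the mitochondrial share itself, and each side was clustered apart. In each library the 5% of cells most like simulated doublets were left out. For clustering, each cell was brought to 10000 counts and logged. From the 2000 most variable genes, the 31 genes and 46 related genes left out, 10 principal components were made, and a graph of 30 neighbours was clustered by the Leiden method (resolution 0.8, seed 20). A cluster was named from at least 3 fixed markers, each in at least 10% of its cells and at 2-fold the mean of the other clusters. A cluster of 193 cells with granulocyte markers but led by *Ccl24* and *Cd163* was left unnamed.

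All 31 genes are named, by role, with the highest and lowest gene of each related list (1 of these is not reported here) and the 5 genes ranking most like the set. Members, lists and thresholds were chosen with earlier results of these data known. Levels have exact Poisson intervals, shares of cells Clopper-Pearson intervals (95%). No test was made, since no library has a known group. Fold and interval steps were tested on simulated data. Gene spans are from GENCODE M21 (GRCm38). The tools were leidenalg 0.10.2, igraph 0.11.9, scipy 1.17.1, scikit-learn 1.9.0, matplotlib 3.10.9, numpy 2.4.6 and pandas 2.3.3 under Python 3.11.15.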

Additional observations from a re-analysis of the deposited data

How the results depend on the processing

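Counting intervals of these pooled sums are narrow, so most alternatives moved a value past its interval although few moved it far. The share of the set in cardiomyocyte-like cells (14.3%) was 14.0% with the set kept among the variable genes, 14.9% with 20 principal components, 9.25% with doublets kept, 15.3% with at least 500 genes per cell, 14.2% with all cells clustered together, 14.7% without the library 4 cluster (an alternative chosen after seeing the data) and 11.0% to 14.7% with 1 library left out. The share in the other named classes (0.117%) was, in the first 5 of these settings, 0.120%, 0.121%, 0.118%, 0.119% and 0.119%. It was 0.118% and 0.120% at resolutions 0.4 and 1.6 and 0.104% to 0.154% with 1 library left out. Of the set's UMIs, the percentage in cardiomyocyte-like cells (42.1%) was 42.3%, 41.8%, 46.6%, 38.3%, 42.2% and 41.4% in the first 6 settings, 42.3% at resolution 1.6, and 21.6% to 47.5% with 1 library left out, the lowest without library 1. The share at or over 20% mitochondrial UMIs relative to that under it (0.992) was 1.04, 0.984, 1.45, 1.02, 0.999 and 0.964 in the first 6 settings, 0.973 at resolution 1.6, 1.02 with a limit at 40% and 0.965 to 1.13 with 1 library left out, so no direction can be read from it. The ratio of endothelial-like shares between libraries (1.90) was 2.01 with the set among the variable genes, 1.82 with doublets, 2.03 with at least 500 genes, 1.98 with joint clustering and 1.57 at resolution 0.4. The count of 29 genes at least 4-fold higher stayed between 27 and 30 in all 14 alternatives. The causes were not tested. No paired analysis was possible because no library is tied to a graft or a replicate number. Genes with few UMIs in a library, such as *Casq2*, *Ryr2*, *Myl4* and *Myl7*, are limited by depth, and values of library 2 or 4 rest on 160 or 156 cardiomyocyte-like cells.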
